A study of Mus musculus with 6 samples.

Results

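The Notch genes described here are 4 receptors (Notch1, Notch2, Notch3, Notch4), 4 ligands (Jag1, Jag2, Dll1, Dll4) and 2 target genes (Hes1, Hey1), chosen by symbol. All 10 were found among the 19938 genes measured on 6 arrays of mouse colon. The mutants were 3 VilCre;Ihhflox/flox mice, in which a Cre recombinase under the villin promoter, active in intestinal epithelium, deletes Ihh (Indian hedgehog, a secreted signal). The controls were 3 littermates, called wild type in the sample labels, which do not say whether they carry Cre or floxed alleles. Mutant and control of one number came from one litter, and each mouse was hybridised to 1 Affymetrix Mouse Gene 1.0ST array. Harvest was at postnatal day 12 by the design text, and between day 9 and day 12 by the growth protocol. All tissue was whole colon, so the values mix epithelium, muscle, vessels, nerve and blood cells, and fewer cells of a type cannot be told apart from less RNA per cell.

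Notch signalling passes between touching cells. A ligand of the Jagged or Delta-like family on one cell binds a Notch receptor on the next, proteases then cut the receptor, and its inner part enters the nucleus, binds Rbpj and switches on repressor genes of the Hes and Hey families. In mouse intestinal crypts, Notch1 and Notch2 keep progenitors dividing, and Hes1 represses Atoh1, the gene that commits cells to the secretory lineages. In the gut wall the pathway also works in arteries, pericytes and smooth muscle.

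No Notch receptor, ligand or target gene passed the test between mutant and control colon. The count was 0 of 10 at an adjusted p under 0.05 (limma with the litter as a block), where 3.77% of all genes were called. At an unadjusted p under 0.05 the count was 4 of 10, all lower in mutants (Notch2, Jag1, Dll1 and Hey1), against 15.1% of all genes (8.03% lower and 7.05% higher). By sign, 7 were lower and 3 higher, with a median change of -0.17 on the log2 scale, against 0.01 over all genes. All values below are expression on the log2 scale after RMA, every change is mutant minus control with its standard error, and levels of different genes are not compared, since each gene has its own probes.

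The 95% confidence intervals of the fit show how large a change in whole colon these arrays leave room for. Each interval is for 1 gene, and they are no joint bound over the 10. Over the 10 genes they ran from -0.49, which is 1.41-fold lower in mutants, to 0.44, which is 1.36-fold higher. The intervals of Notch2, Jag1, Dll1 and Hey1 lay below 0, without adjustment for the number of genes tested. Among the 751 genes called in the whole table, the smallest change in size was 0.369, which is more than any of the 10 showed.

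After RMA, which sets the arrays to a common scale, summary values of the 6 arrays were close. Array medians lay between 7.10 and 7.14, and Pearson correlations between arrays, across rows of the table, ranged from 0.9855 to 0.9936. Ihh itself was at 8.37, 8.22 and 8.22 in mutants 1 to 3, against 8.50, 8.54 and 8.68 in controls 1 to 3. Its groups did not overlap, and its change of -0.30 ± 0.09 missed the threshold (limma adjusted p = 0.139). The hedgehog receptor and target Ptch1 fell by 1.44 ± 0.09. Gli1, a transcription factor of the pathway, fell by 0.78 ± 0.08, and Hhip, a hedgehog-binding inhibitor, fell by 2.16 ± 0.13. Colon markers were measured in every array: Car1, a colonocyte carbonic anhydrase, averaged 13.0 in mutants and 12.4 in controls, and Muc2, the goblet cell mucin, 13.7 in mutants and 13.4 in controls.

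Among the receptors, Notch2 was the one whose groups stood apart. Notch2, a receptor of crypt progenitors and of mesenchyme, was at 8.82, 8.86 and 9.06 in mutants 1 to 3, against 9.23, 9.11 and 9.10 in controls 1 to 3. All mutants lay below all controls, but the gap was only 0.04 in litter 3, against 0.41 in litter 1 and 0.24 in litter 2. The change was -0.23 ± 0.10 (limma adjusted p = 0.297), and it was -0.14 without litter 1.

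Notch1, the other crypt receptor, was at 8.74, 8.98 and 8.70 in mutants, against 8.75, 8.75 and 8.73 in controls. The controls lay close together (SD 0.0111, n = 3), while mutant 2 stood above them, mutant 1 among them and mutant 3 just below. Its change was 0.06 ± 0.09 (limma adjusted p = 0.848), and without litter 2 the sign turned, with a change of -0.02.

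Notch3, the receptor of vascular smooth muscle and pericytes, was at 7.86, 7.96 and 8.12 in mutants, against 8.15, 8.22 and 8.06 in controls. The groups overlapped: the mutant was lower in litters 1 and 2 and higher in litter 3. The change was -0.16 ± 0.10 (limma adjusted p = 0.517), and it was -0.0974 without litter 1 and -0.28 without litter 3.

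Notch4, a receptor made mainly by endothelium, was the receptor with the highest change. It was at 8.16, 7.99 and 8.21 in mutants, against 7.81, 7.99 and 7.90 in controls. Mutants 1 and 3 lay above every control, and the mutant and the control of litter 2 had the same level. The change was 0.22 ± 0.10 (limma adjusted p = 0.340), with an interval from -0.0033 to 0.44.

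Of the ligands, Jag1, which is made in vessels, smooth muscle and crypts, was lower in mutants than in their littermates. It was at 8.11, 8.26 and 8.31 in mutants, against 8.36, 8.62 and 8.51 in controls, and the groups did not overlap. The change was -0.27 ± 0.08, or 1.21-fold lower, with an interval from -0.46 to -0.08 (limma adjusted p = 0.142). It was about as large without litter 1, at -0.28.

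Dll1, a ligand of crypt cells that are turning secretory, was at 6.74, 6.86 and 7.09 in mutants, against 7.02, 7.17 and 7.16 in controls. The mutant was lower in each litter, yet mutant 3 lay above control 1, so the groups overlapped. The change was -0.22 ± 0.09 (limma adjusted p = 0.283).

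Dll4, the ligand of sprouting and arterial endothelium that crypt cells also make, was at 7.76, 7.52 and 7.45 in mutants, against 7.52, 7.59 and 7.60 in controls. The litters disagreed, with the mutant higher in litter 1 and lower in litters 2 and 3. The change was 0.01 ± 0.10 (limma adjusted p = 0.992), and it was -0.11 without litter 1. Jag2, another Jagged ligand, was at 6.84, 7.18 and 7.16 in mutants, against 7.18, 7.20 and 7.06 in controls. Mutant 1 alone lay below the controls, and the change of -0.08 ± 0.10 (limma adjusted p = 0.814) became 0.04 without litter 1.

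Hey1, a repressor gene switched on by Notch in vessels and mesenchyme, came closest to the threshold of the 10 genes. It was at 6.75, 6.87 and 6.89 in mutants, against 7.06, 7.22 and 7.17 in controls. The groups did not overlap, and the mutant was lower by 0.31, 0.35 and 0.27 in litters 1 to 3, the narrowest spread between litters of the 10 genes (SD 0.0354, n = 3). The means were 6.84 ± 0.0741 in mutants and 7.15 ± 0.0775 in controls (SD, n = 3 each), a change of -0.31 ± 0.08 or 1.24-fold lower. The limma adjusted p was 0.0841, with 1100 genes having a smaller p. It ranged from 0.0464 to 0.307 over 13 alternative settings, and passed in the fit with array weights alone.

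Hes1, the repressor that holds crypt cells out of the secretory lineages, was at 9.56, 9.94 and 10.09 in mutants, against 9.82, 10.15 and 10.13 in controls. Mutant 1 was low and so was its control, and the groups overlapped. The mutant was lower in each litter, by 0.26, 0.20 and 0.04, and the change was -0.17 ± 0.09 (limma adjusted p = 0.420).

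**Figure D1:**
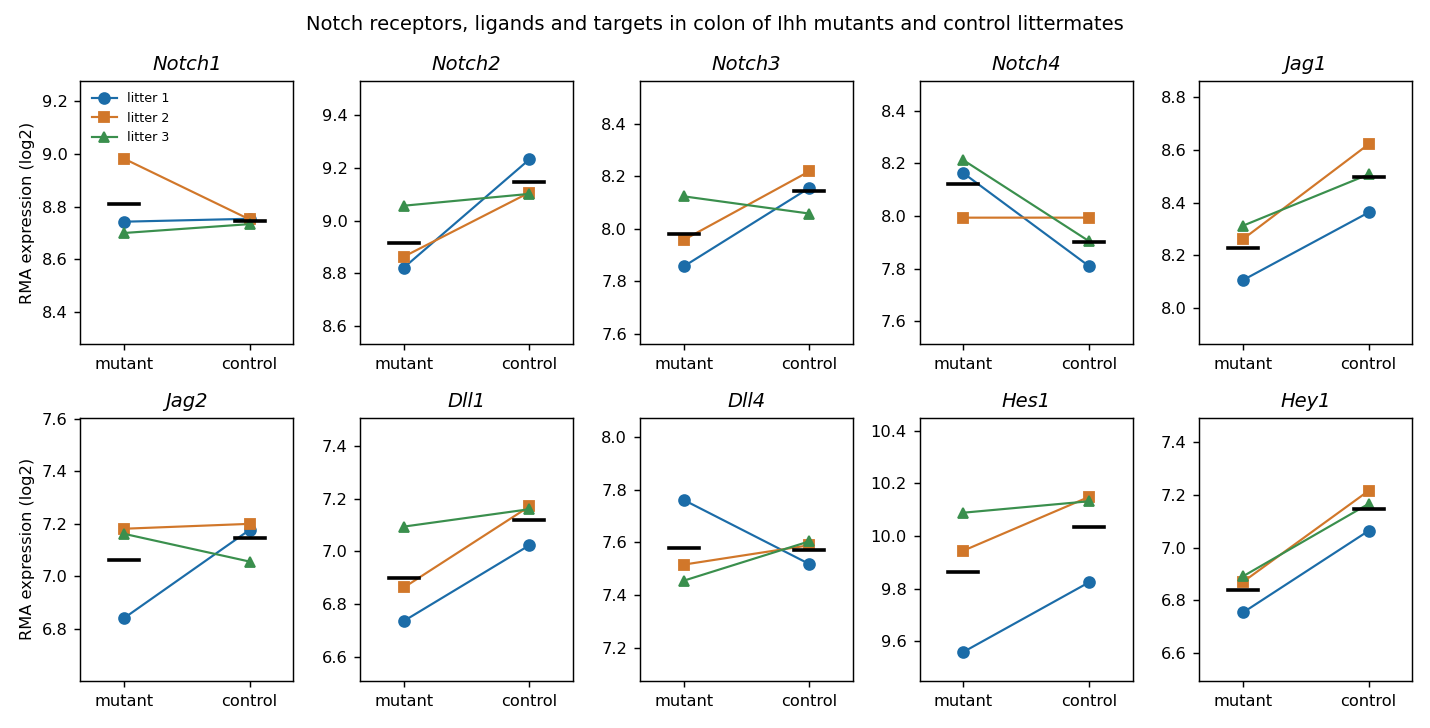
RMA expression (log2) of the 10 Notch genes in mutants (left) and controls (right), 1 panel per gene, each spanning 1.0 on the log2 scale. Coloured lines join the littermates of litters 1 to 3 and black bars are group means. Hey1, Jag1 and Notch2 are the genes whose mutants all lie below the controls, and the groups of the other 7 overlap.

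The 10 genes were compared by litter and by array. In 3 of 10 genes (Notch2, Jag1, Hey1) all mutants lay below all controls and in the other 7 the groups overlapped, where 19.8% of all genes had groups that did not overlap and 9.78% had all mutants below. In 5 of 10 (Notch2, Jag1, Dll1, Hes1, Hey1) the mutant was lower in each litter, against 17.1% of all genes, and in 0 of 10 it was higher in each, against 18.8%. By litter, the median change of the 10 was -0.28, -0.22 and -0.04 in litters 1 to 3. Mutant 1 was the lowest of the 6 arrays for 7 of the 10 genes, and for 20% of all genes. Control 2 was the highest for 6 of the 10 genes, and for 15.3% of all genes. Without litter 1 the median change was -0.12, with 0 of 10 called and 7 of 10 lower by sign. The median change was -0.135 without litter 2 and -0.26 without litter 3.

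The spread was wider among mutants than among controls for 8 of 10 genes, against 51.8% of all genes. The median SD of the 10 was 0.143 in mutants and 0.0791 in controls, and over all genes it was 0.104 in mutants and 0.0987 in controls. The SD of the change between litters ran from 0.0354 for Hey1 to 0.227 for Jag2. Each of these SDs rests on 3 litters, and whether the 10 genes differ in this spread was not tested.

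**Figure D2:**
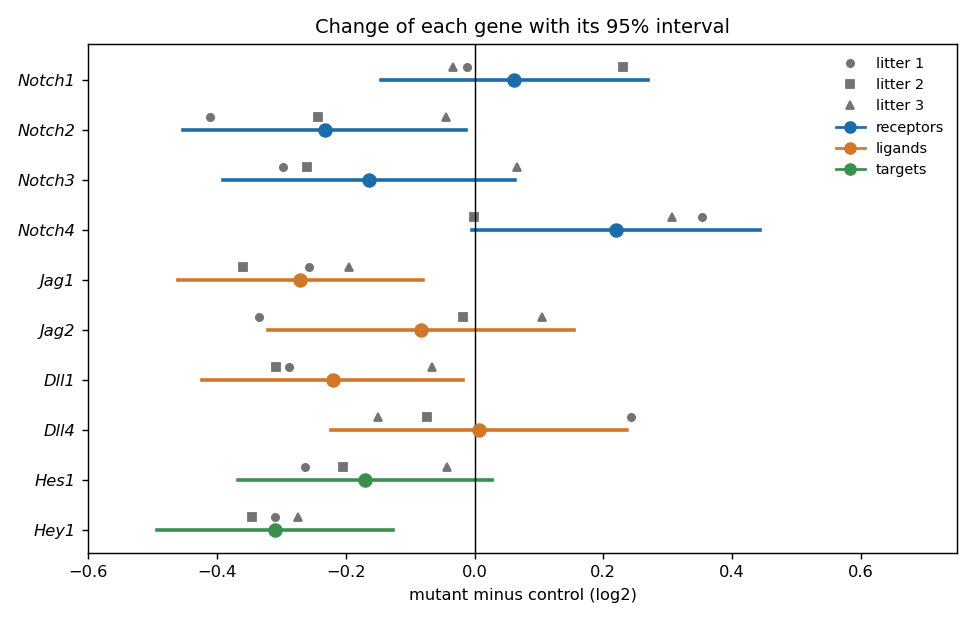
Mutant minus control change (log2) of each Notch gene. Coloured dots and bars are the fitted change and its 95% confidence interval, coloured by role, and grey marks above them are the differences in litters 1 to 3. The intervals of Notch2, Jag1, Dll1 and Hey1 lie below 0, and the litters lie closest together for Hey1.

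Other genes of the pathway were described from lists that held 46 measured genes. Of these 46, 1 rose and 0 fell, against 1.66% of all genes that rose and 2.11% that fell, and the median change was -0.06. At an unadjusted p under 0.05 there were 2 of 46.

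The gene that rose was Dlk1, an imprinted gene of a membrane protein with Delta-like repeats that lacks the receptor-binding domain of true Notch ligands. It was at 9.49, 9.49 and 9.95 in mutants, against 8.64, 8.17 and 8.20 in controls. All mutants lay above all controls, the change was 1.31 ± 0.15 (limma adjusted p = 0.00495), and the litters gave 0.86, 1.32 and 1.75. The other ligand-like genes did not pass: Dner changed by -0.18, Dll3 by -0.12, and Dlk2 by 0.07. Without litter 1 the changes of Dner and Dll3 were -0.0821 and 0.0156.

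Of 8 further Hes, Hey and feedback genes 0 passed, with 4 higher and 4 lower by sign. Heyl, a relative of Hey1 found in pericytes and smooth muscle, was at 7.46, 7.62 and 7.44 in mutants, against 7.72, 7.78 and 7.90 in controls. Its mutants all lay below the controls, with a change of -0.29 ± 0.09 that missed the threshold (limma adjusted p = 0.148). Hey2, another gene of the Hey family, changed by -0.15 ± 0.12, with the mutant higher in litter 1 and lower in litters 2 and 3, and it changed by -0.33 without litter 1 and by -0.0264 without litter 3. Nrarp, a feedback inhibitor that Notch induces, changed by -0.12 ± 0.09, and without litter 1 by -0.02.

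The shared machinery moved little. In the transcription complex 0 of 9 genes passed, with a median of -0.03 and changes of -0.16 for the acetyltransferase gene Kat2b, 0.14 for the coactivator gene Maml3, -0.08 for the acetyltransferase gene Ep300 and -0.07 for Rbpj. Among receptor proteases 0 of 9 passed, with a median of -0.04. The gamma-secretase subunit genes Aph1c, Aph1b and Ncstn, which had the smallest p of that list, changed by -0.16, -0.09 and -0.08. Among 5 glycosyltransferases, which tune how receptors bind ligands, 0 passed, with Mfng at -0.11, Poglut1 at -0.07 and Pofut1 at -0.06. Of 11 genes of ligand and receptor trafficking 0 passed, and the Deltex genes Dtx3, Dtx2 and Dtx1 had -0.17, 0.16 and -0.16.

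Some secretory lineage genes, a group that Notch holds back in crypt progenitors, were higher. Of 7 such genes 2 rose, 0 fell and 5 did not pass, against 1.66% of all genes that rose and 2.11% that fell. The median change of the 7 was 0.15. Whether Notch signalling had a part in these changes was not tested. Atoh1, the master gene of goblet and endocrine cells that Hes1 represses, was at 10.56, 11.02 and 10.72 in mutants, against 10.11, 10.59 and 10.41 in controls. The mutant was higher in each litter by 0.45, 0.43 and 0.31, although mutant 1 lay below control 2, so the groups overlapped. Atoh1 rose by 0.40 ± 0.08 (limma adjusted p = 0.0402). That call ended without the litter block (adjusted p = 0.239) and with the litter as a random block (0.183), and the adjusted p was 0.0785, 0.124 and 0.101 without litters 1, 2 and 3.

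Spdef, a goblet cell transcription factor gene downstream of Atoh1, was at 9.62, 9.91 and 9.54 in mutants, against 8.85, 8.98 and 8.83 in controls. The groups did not overlap, and Spdef rose by 0.80 ± 0.09 (limma adjusted p = 0.00361). Neurog3, the gene that starts the endocrine lineage, was at 6.18, 6.40 and 6.08 in mutants, against 6.01, 5.95 and 5.80 in controls. All its mutants lay above the controls, but it did not pass (change 0.30 ± 0.09, limma adjusted p = 0.127). Neurog3 and Neurod1 lay among the dimmest 30% of genes, which an alternative setting left out. Gfi1, Insm1 and Neurod1 had changes of 0.00, 0.02 and 0.15, and Dll3, which also stands among the ligands, was the 1 lower by sign.

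**Figure D3:**
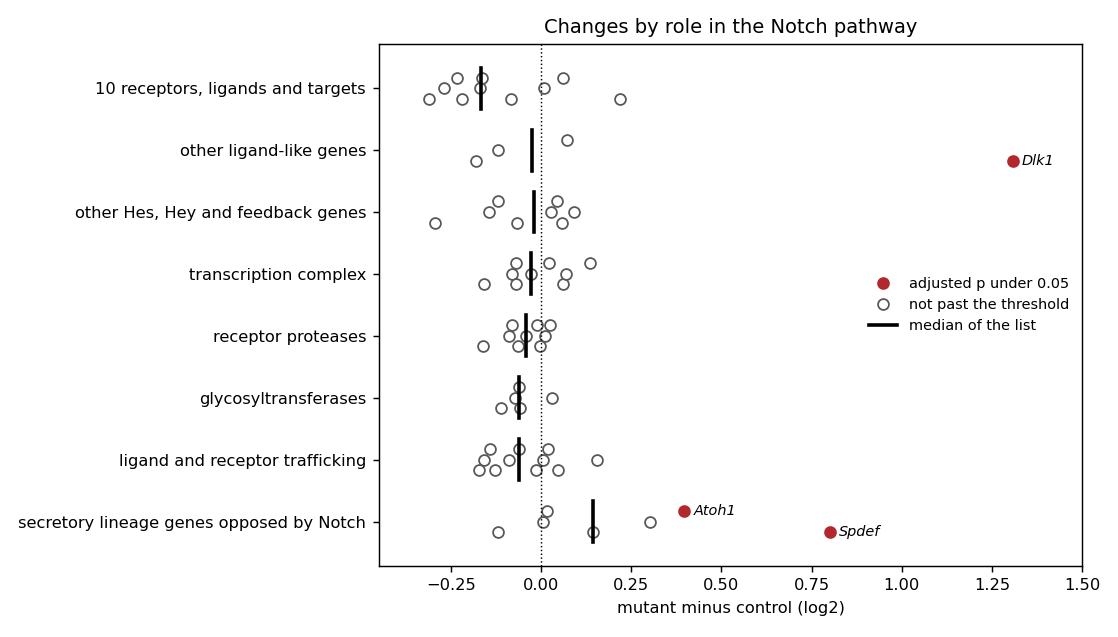
Mutant minus control change (log2) of every measured Notch pathway gene by role, with secretory lineage genes in the bottom row. Filled red circles passed an adjusted p under 0.05, open circles did not, and black bars are list medians. Dlk1, Atoh1 and Spdef stand right of 0, while the 10 receptors, ligands and targets are open circles between -0.31 and 0.22.

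Markers of some of the cell types that make these genes passed the test. Of 17 blood endothelium markers 9 fell and 0 rose. The shares over all genes, for this list and those below, were 2.11% that fell and 1.66% that rose. The median change of the 17 was -0.42. Their mean level lay between 8.09 and 8.28 in mutants and between 8.49 and 8.72 in controls. The mean change of these markers was -0.40, -0.42 and -0.44 in litters 1 to 3, while Notch4 changed by 0.35, 0.00 and 0.31 and Dll4 by 0.24, -0.07 and -0.15. For Hey1 the litters gave -0.31, -0.35 and -0.27, which lie on the same side as the blood endothelial markers and are smaller in size. The mean change was -0.07, -0.26 and -0.23 for 7 arterial markers and -0.22, -0.08 and -0.16 for 6 pericyte markers. Within these lists, the fitted change of single markers ran from -0.43 to 0.07 (arterial) and from -0.51 to 0.12 (pericyte). The endothelial markers with the smallest p were Kdr, Plvap and Aplnr, at -0.61, -0.63 and -0.63. The Plvap and Aplnr calls ended without the litter block (limma adjusted p = 0.106 and 0.138) and with the litter as a random block (0.0764 and 0.101), and that of Aplnr also without litter 3 (0.0520).

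Of 7 arterial markers 2 fell (Efnb2, -0.43, and Sox17, -0.42) and 0 rose. Their mean level lay between 7.36 and 7.45 in mutants and between 7.48 and 7.67 in controls. The Sox17 call ended under 7 of 13 alternatives and that of Efnb2 under 3. Of 5 lymphatic markers 0 passed, with mean levels of 7.67 to 7.95 in mutants and 7.88 to 7.95 in controls.

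Of 11 smooth muscle markers 7 fell and 0 rose, with mean levels of 10.5 to 10.9 in mutants and 11.2 in each control. Those with the smallest p were Myh11, a smooth muscle myosin gene, Cnn1, the gene of calponin, and Myocd, a transcription coactivator gene of muscle, at -0.56, -0.72 and -0.55. The Cnn1 and Myocd calls ended without litter 1 (limma adjusted p = 0.0687 and 0.0565), and that of Myocd also without litter 3 (0.0520). The mean change of the 11 markers was -0.72, -0.58 and -0.30 in litters 1 to 3. Over the same litters Notch2 changed by -0.41, -0.24 and -0.04, Notch3 by -0.30, -0.26 and 0.07, Jag1 by -0.26, -0.36 and -0.19, and Heyl by -0.26, -0.16 and -0.46. Of 6 pericyte markers 1 fell (Rgs5, -0.51), with mean levels of 8.59 to 8.68 in mutants and 8.77 to 8.81 in controls, and of 7 fibroblast markers 1 fell (Pdgfra, -0.42), with mean levels of 11.2 to 11.6 in mutants and 11.6 to 11.7 in controls. The Rgs5 call ended without litter 3 (limma adjusted p = 0.0610), and that of Pdgfra without litter 2 (0.0561) and without litter 3 (0.200). The part of these cell types in the values of Notch genes was not tested.

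Of 12 epithelial markers 0 passed, and their mean level was 11.1 to 11.2 in mutants and in controls. Of 7 crypt stem cell markers 3 rose (Lgr5, Sox9 and Smoc2, at 0.68, 0.55 and 0.57) and 1 fell (Ascl2, -0.53), with mean levels of 8.005 to 8.10 in mutants and 7.77 to 7.94 in controls. The Sox9 call ended without the litter block (limma adjusted p = 0.0845) and with litter as a random block (0.0599), and leaving out litter 3 ended the Smoc2 and Ascl2 calls (0.0918 and 0.115). Among 8 small intestinal enterocyte markers 1 rose (Slc10a2, 1.17) and 1 fell (Mep1a, -0.59), with mean levels of 8.12 to 8.34 in mutants and 7.72 to 8.08 in controls. By sign, 6 of these 8 were higher and 2 lower, with changes from -0.59 to 1.19. Of 6 colon epithelium markers 1 fell (Aqp8, -1.29), with mean levels of 10.2 to 10.8 in mutants and 10.5 to 10.6 in controls. Leukocyte (8), enteric neuron and glia (5), fat (3) and skeletal muscle (4) markers held 0 calls, 1 of 5 mesothelium markers rose (Upk1b, 0.57), and so did the 1 measured blood cell marker (Alas2, 0.37). The Upk1b call ended without the litter block (limma adjusted p = 0.236), with litter as a random block (0.182), and with litter 2 (0.0707) or litter 3 (0.0561) left out. The Alas2 call ended whichever litter was left out (0.0522, 0.149 and 0.254 without litters 1, 2 and 3).

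**Figure D4:**
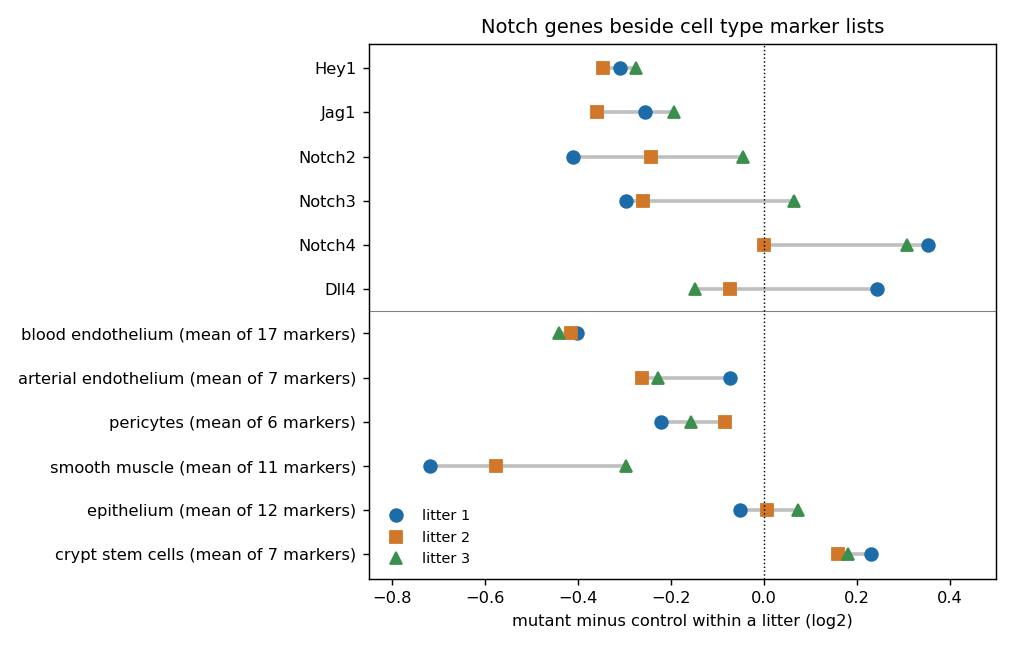
Mutant minus control difference (log2) within litters 1 to 3 for 6 Notch genes (top) and for the mean of 6 marker lists (bottom). Each mark is 1 litter and grey bars join the lowest and the highest. Endothelial and smooth muscle markers lie left of 0 in every litter, as do Hey1, Jag1 and Notch2, while Dll4 and Notch3 have litters on either side and Notch4 lies at 0 or right of it.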

How the data were processed

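Values are log2 expression as deposited by the authors, made with RMA per the submitters' processing notes. The sources used here give neither its version nor a genome build. The table had 35557 rows for 6 arrays and 0 other columns of values. Rows were named through the platform annotation of 2016, and 21789 had 1 symbol. For each gene the row with the highest mean was kept, which left 19938 genes. Each of the 10 Notch genes had 1 such row. Precision is limited by 3 arrays per group.

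The comparison used limma 3.58.1 under R 4.3.3 (linear model with eBayes, two-sided, Benjamini-Hochberg over 19938 genes, threshold 0.05). The litter was a fixed block, because the series' design text says that same-numbered mice are littermates. Across genes, littermates' deviations from the group means had correlations of 0.0128, 0.00516 and 0.0613, so the pairing comes from the design text. The fit has 2 residual degrees of freedom, to which the shared prior adds 5.85. All adjusted p values are from this fit unless another setting is named.

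Members and gene lists were chosen with earlier results of these data known. Named are the 10 genes, Ihh, Ptch1, Gli1 and Hhip, the genes past the threshold or with the 3 smallest p of each pathway list, and up to 3 called markers per cell type. Dlk2, Rbpj, Gfi1, Insm1, Neurod1, Ascl2, Car1 and Muc2 were named outside this rule, after values were seen. Marker lists are described by counts and by mean log2 levels. The 13 alternatives are given in the closing section.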

Additional observations from a re-analysis of the deposited data

How the results depend on the processing

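Of 130 values of the 10 Notch genes over 13 alternatives, 125 kept their direction and their side of the threshold. Hey1 passed with array weights (-0.31, adjusted p = 0.0464), so that 1 of 10 genes was called there, and 0 of 10 in the other settings, among them the fit with no replicate block. With 1 litter left out, the sign turned for Notch1 (range -0.0224 to 0.110), Jag2 (-0.177 to 0.0434), Dll4 (-0.111 to 0.0848), Dll3 (-0.199 to 0.0156), Gfi1 (-0.0698 to 0.107) and Insm1 (-0.0227 to 0.0409). It also turned with array weights for Dll4 (-0.0595) and Gfi1 (-0.0268). The cause was not tested. The median change of the 10 genes ranged from -0.26 without litter 3 to -0.12 without litter 1. That of the other pathway genes was -0.0586, and it was -0.0381 with array weights, -0.0339 with median centring, -0.0494 when all rows of a gene were averaged, -0.0401 with Xist as a covariate, and -0.0487 to -0.0292 when 1 litter was left out.

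Over all genes 751 were called, 330 higher and 421 lower. Array weights gave 1246 (512 higher, 734 lower) and Xist as a covariate 1230 (558 higher, 672 lower). Testing all 35557 rows gave 2 calls (1 higher, 1 lower), with 0 of the other pathway genes and 0 of the 25 called genes named here. That fit tests more rows and has a prior of 3.01 degrees of freedom, against 5.85. Median centring gave 359 higher and 347 lower. With no replicate block 638 were called, and 6 of the 25 named calls ended. Leaving out 1 litter ended 5, 5 and 11 of them for litters 1, 2 and 3, with 546 to 798 genes called. Neurog3 (0.33, adjusted p = 0.0498) and Ihh (-0.36, adjusted p = 0.0418) passed with array weights. So did Car1 (0.71, adjusted p = 0.0248) and Muc2 (0.34, adjusted p = 0.0325), which were at 0.0570 and 0.0583 with the litter as a fixed block and passed in further settings too.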

Other observations

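Beside the row used for Notch4, 6 rows of the table carried both Notch4 and Sympk in the platform annotation and were left out of the comparison. Their levels lay between 5.34 and 5.78 on all 6 arrays, and 2 of these rows held identical values. Mutants and controls overlapped in each of the 6 rows.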
